A study of Mus musculus with 5 samples.

Results

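Arterial endothelial cells of the injured mouse kidney were taken as those cells of the authors' Endothelial Cells label that held at least 2 unique molecular identifiers (UMIs, counts of single captured RNA molecules) of Sox17, Gja5 and Gja4 together and none of Plvap or Ehd3. They numbered 189 of 3361 endothelial cells (5.62%), among 23797 cells in all. The kidneys came from 5 mice after ischemia-reperfusion injury, with mice 3, 4 and 5 taken at day 10 and mice 1 and 2 at 48 h. Each mouse gave 1 library of droplet-based single-cell RNA sequencing of polyadenylated transcripts, read at their 3' ends. The labels list only injured kidneys and do not state strain, age, sex or the length of ischemia, so day 10 is compared with 48 h, both after injury. The members numbered 46, 33 and 49 cells in day 10 mice 3, 4 and 5, against 28 and 33 cells in 48 h mice 1 and 2. Kap, abundant in proximal tubule cells, was found in 9.09% of the members of day 10 mouse 4. Day 10 mice 3 and 5 had 100 and 91.8%, and 48 h mice 1 and 2 had 92.9 and 87.9%. Of proximal tubule cells, 16.8% held Kap in mouse 4, against 92.3 to 99.6% in the other mice. Mouse 4 thus differed from both other day 10 mice, and the part of this in the comparisons was not tested.

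Blood enters the kidney through arteries and arterioles, crosses the glomerular and peritubular capillaries, and reaches the medulla through the descending vasa recta, vessels that begin at efferent arterioles. Endothelial cells of the arterial side are set apart during development by VEGF and Notch signalling and the transcription factor Sox17, and they are coupled by the gap junction proteins connexin 40 (Gja5) and connexin 37 (Gja4). They face high pressure and flow, lie on elastic fibres, and release nitric oxide and endothelin that act on vessel tone. Plvap, a protein of the diaphragms of fenestrae, marks peritubular capillaries, and Ehd3, a membrane trafficking protein, marks glomerular capillaries.

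Kept cells held between 45887945 and 78351722 UMIs per library, and the members between 131799 and 292256 UMIs per mouse. The median member had 4561, 4595 and 4116 UMIs in day 10 mice 3, 4 and 5, against 3769 and 4622 UMIs in 48 h mice 1 and 2. In mouse 2, however, 2 members held 47648 and 39554 of the 231992 UMIs summed. The largest member held 31864, 20625 and 22076 UMIs in mice 3, 4 and 5, and 13010 UMIs in mouse 1. The part of such large cells in the summed levels was not tested. Of the kept barcodes of each library, between 18 and 28 also occurred in another library. The rule reads raw UMIs, so a cell with few molecules can miss a marker or miss Plvap. In all 992 endothelial cells had 2 or more UMIs of Sox17, Gja5 and Gja4, and 803 of these were left out because they held Plvap or Ehd3. At the edge of the rule, 22 members had exactly 2 UMIs of the markers, and 37 cells without Plvap and Ehd3 stood just outside with 1.

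The 3 markers did not always occur together. Sox17 was found in 167 members, Gja4 in 127 and Gja5 in 83. Sox17 with Gja4 but no Gja5 was the most frequent combination (66 cells), followed by all 3 (47 cells) and Sox17 alone (39 cells). The pan-endothelial genes Pecam1 and Cdh5 were found in 87.8% and 91.0% of members. Of 4 vein markers, 3 had a UMI in the members and Ackr1 had none. Vwf was found in 29.1% of members and Nr2f2 in 11.1%. None of the lymphatic markers Prox1, Lyve1 and Mmrn1, the T and natural killer cell markers Cd3e, Cd3g and Nkg7, or the B cell markers Cd79a and Ms4a1 had a UMI in any member. The cells were chosen by their UMIs of Sox17, Gja5, Gja4, Plvap and Ehd3, so the levels of these genes are a description and carry no test.

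The members lay in the authors' clusters 3 (172 cells) and 8 (17 cells), and those of cluster 8 met the rule mainly through the connexins. Sox17 was found in 3 of these 17 cells, against 95.3% of the members in cluster 3, Cldn5 in 1 and Fbln5 in 2, while Efnb2 and Cdh5 were found in all 17. They held 70 of the 244 Gja5 UMIs of the members, 24 of them in mouse 1 and 29 in mouse 3. The share and the counts of changed genes are given with and without these cells, an alternative added after the data were seen.

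Sox17 stood at 766, 1286 and 916 CPM (counts per 1000000 of the summed UMIs of the members of a mouse) in day 10 mice 3, 4 and 5, against 751 and 1530 CPM in 48 h mice 1 and 2. Gja5 had 212, 193 and 214 CPM at day 10, against 455 and 155 CPM at 48 h. Gja4 had 209, 368 and 337 CPM at day 10, against 402 and 470 CPM at 48 h. The groups overlapped for Sox17 and Gja5, whereas the Gja4 values at day 10 all lay below those at 48 h.

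The promoters of both connexin genes are given because these genes define the cells. The windows run from 250 bases before to 50 bases after the annotated gene start (RefSeq, GRCm38.p6; GRCm38 is the assembly that mm10 names) and are written 5′ to 3′ on the strand of the gene. Capitals mark matches on either strand to ACAAT (SOX factors), TGGGAA (RBPJ, the DNA-binding partner of Notch), TTCNNNGAA (STAT factors) and CACCC (KLF factors), which may overlap each other.
Gja5, chr3:97032152-97032451, plus strand: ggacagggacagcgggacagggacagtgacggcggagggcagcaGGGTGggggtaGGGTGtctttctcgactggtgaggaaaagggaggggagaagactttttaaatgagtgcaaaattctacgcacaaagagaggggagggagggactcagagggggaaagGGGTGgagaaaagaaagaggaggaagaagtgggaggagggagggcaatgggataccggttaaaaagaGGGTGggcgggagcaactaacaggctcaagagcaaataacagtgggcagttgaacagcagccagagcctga
Gja4, chr4:127313990-127314289, minus strand: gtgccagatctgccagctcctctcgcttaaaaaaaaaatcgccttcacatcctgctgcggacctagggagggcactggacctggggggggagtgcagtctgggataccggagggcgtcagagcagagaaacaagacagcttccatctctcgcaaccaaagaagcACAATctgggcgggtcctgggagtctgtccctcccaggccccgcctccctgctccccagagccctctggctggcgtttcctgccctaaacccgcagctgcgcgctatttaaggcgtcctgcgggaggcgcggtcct
Gja5 held 4 matches to CACCC and none to the other motifs, and Gja4 held 1 match to ACAAT and none to the others. Among 32851 promoter windows of the same length, 57.5% held CACCC, 31.0% ACAAT, 25.6% TGGGAA and 8.30% TTCNNNGAA. A match is a string of letters and no measured binding site.

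Members made up 6.49, 5.33 and 8.69% of the endothelial cells in day 10 mice 3, 4 and 5, against 3.39 and 5.12% in 48 h mice 1 and 2. Every day 10 mouse stood above both 48 h mice, the nearest pair being 5.33% in mouse 4 and 5.12% in mouse 2. The mean was 6.84% ± 1.71 at day 10 (SD, n = 3) and 4.26% ± 1.22 at 48 h (SD, n = 2). Without the members of cluster 8 the shares were 5.50, 5.17 and 8.16% at day 10, against 2.79 and 4.97% at 48 h, again without overlap. The difference of 2.58 percentage points over all members had a two-sided exact permutation p of 0.2, the smallest that 3 against 2 mice can give. With every endothelial cell thinned to 2000 UMIs the shares were 8.23, 7.64 and 11.7% at day 10, against 3.72 and 8.14% at 48 h, and the groups overlapped (exact permutation p = 0.4). Thinning removes Plvap and Ehd3 UMIs as well as marker UMIs, and 306 shallower cells were left out. Of all kept cells the members were 0.778, 0.844 and 0.914% at day 10, against 0.572 and 0.887% at 48 h, which overlapped too (exact permutation p = 0.6). With a rule of 3 or more marker UMIs the means were 5.87% at day 10 and 3.97% at 48 h, and the groups overlapped (exact permutation p = 0.4). With Plvap and Ehd3 ignored they were 33.0% and 25.6%, without overlap (exact permutation p = 0.2). Plvap, which the rule requires to be 0, stood at 1931, 2119.9 and 1363 CPM in all endothelial cells of day 10 mice 3, 4 and 5, against 2953 and 2847 CPM in 48 h mice 1 and 2, and its part in the share was not tested.

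**Figure D1:**
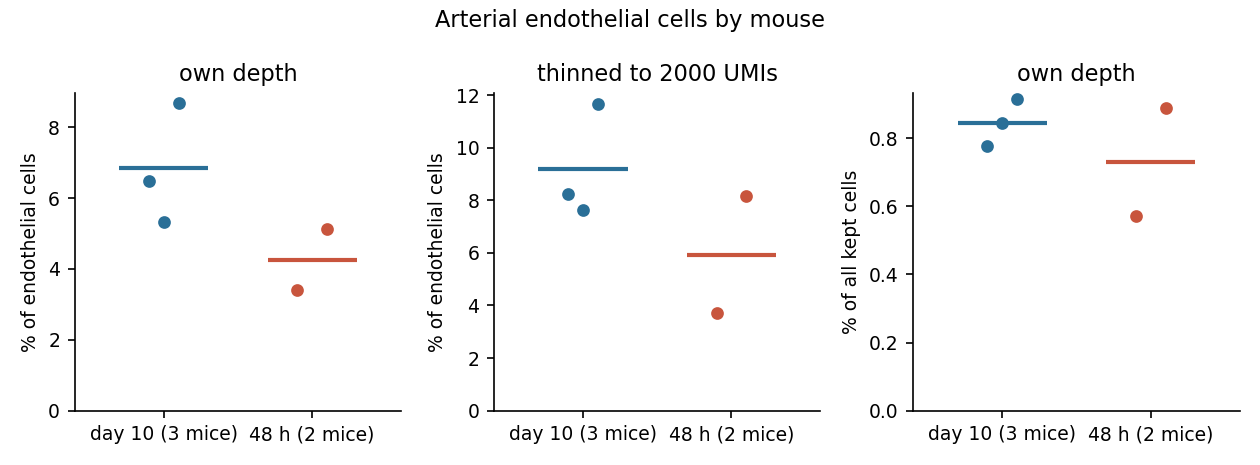
Share of arterial endothelial cells in each mouse (points) with the group mean (line), as a percent of endothelial cells at their own depth, of endothelial cells thinned to 2000 UMIs, and of all kept cells. Day 10 mice lie above 48 h mice in the first panel, while mouse 2 overlaps them in the second panel and lies among them in the third.

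Summed, the members carried transcripts known from large vessels and from the descending vasa recta beyond the 3 markers. The levels of several of these differed between subgroups of members, described below. The contrast of the members with the other endothelial cells of the same mice was set by the rule and is given without a test. In 5 of 5 mice, 320 genes with at least 100 CPM in the members were higher there than in the other endothelial cells. The 15 with the largest mean log2 ratio were Hpgd, Slc14a1, Mgp, Bmx, Stmn2, Egfl8, Htra1, Fam107a, Vegfc, Cldn5, Cxcl12, Fbln5, Aqp1, Syt15 and Jag1. Mgp, matrix Gla protein, an inhibitor of vessel calcification, averaged 3620 CPM in members and 476 CPM in the other endothelial cells. Claudin 5 (Cldn5), a tight junction protein, averaged 1861 and 332 CPM in the same order. Fibulin 5 (Fbln5), which helps assemble elastic fibres, averaged 805 CPM in members and 139 CPM elsewhere in the endothelium. The same fibre's main protein elastin (Eln) averaged 239.6 CPM in members and 48.4 CPM in the other endothelial cells. Bmx, a kinase of arterial endothelium, averaged 177 and 24.7 CPM, and the Notch ligand Jag1 252 and 45.8 CPM, members first. In members a list of 10 markers of all endothelium summed to 6635, 7044 and 7139 CPM in day 10 mice 3, 4 and 5. The list summed to 7906 and 7858 CPM in the members of 48 h mice 1 and 2. In the other endothelial cells it summed to 10361, 9986 and 9778 CPM at day 10, against 10523 and 10175 CPM at 48 h. The members were thus lower in every mouse.

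Some genes known from arterial development did not set the members apart. The Notch ligand Dll4 averaged 119 CPM in members and 110.9 CPM in the other endothelial cells and was higher in 2 of 5 mice. Ephrin B2 (Efnb2) averaged 229.9 CPM in members and 226 CPM in the other endothelial cells, and was higher in members in 4 of 5 mice. It averaged 587 CPM in glomerular cells (an Ehd3 UMI, none of Plvap and under 2 marker UMIs). Pooled over the mice, Efnb2 stood at 1204 CPM in the members of cluster 8 and 169 CPM in those of cluster 3. The endothelin receptor type B, Ednrb, did differ and was lower in members than in the other endothelial cells of every mouse. It averaged 88.2 CPM in members and 401.5 CPM in the other endothelial cells. In peritubular cells (a Plvap UMI, none of Ehd3 and under 2 marker UMIs) it averaged 550.0 CPM.

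Slc14a1 and Mgp, both among the 15 genes above, were largely found in different members. Slc14a1, the urea transporter UT-B, and the water channel Aqp1 are known from the descending vasa recta. An Slc14a1 UMI was found in 52 members, 51 of which also held Aqp1 and 38 Gja5. Slc14a1 was found in 27.5% of members, against 0.400% of peritubular cells and 0.369% of glomerular cells, which were chosen to hold under 2 marker UMIs. It was found in 0.646% of proximal tubule cells, a type that should lack it and whose share measures free RNA. Among the 1651 endothelial cells in none of these classes, 118 (7.15%) held Slc14a1, with 739 UMIs. The 52 members that held it had 316 UMIs, so more cells with Slc14a1 lay outside the members than among them. Median UMI counts by mouse ran from 3769 to 4622 in members, from 3508.5 to 4182 in peritubular cells, from 4201 to 5968 in glomerular cells and from 2888 to 12741 in proximal tubule cells. Aqp1 is also a proximal tubule gene and was found in 44.3% of proximal tubule cells. Mgp was found with 10 or more UMIs in 50 members, and 2 of these held Slc14a1.

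The cells were therefore also described as 3 subgroups, 52 with an Slc14a1 UMI, 48 with at least 10 Mgp UMIs and no Slc14a1, and 89 with neither. This division was made after the values were seen, and its levels are given as pooled CPM with no test. Apart from the channel genes themselves, the Slc14a1 cells were high in Igfbp7, an insulin-like growth factor binding protein (6186 CPM, against 375 CPM in Mgp cells and 875 CPM in cells with neither). They were also high in Lrg1 (1318, 83.3 and 254 CPM in the same order), a glycoprotein that modifies TGF-beta signalling in endothelium, and in the heparin-binding growth factor pleiotrophin, Ptn (956, 27.8 and 23.1 CPM). Mgp cells were high in Eln (542 CPM, against 33.7 CPM in Slc14a1 cells and 87.3 CPM in cells with neither) and in the elastic fibre genes Fbln2 (547, 36.8 and 241 CPM) and Ltbp4 (783, 70.5 and 228 CPM).

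The flow-induced transcription factor Klf4 stood at 856 CPM in Mgp cells, 655 CPM in cells with neither and 104 CPM in Slc14a1 cells. The cells with neither exceeded both other subgroups most in Tcim (285 CPM, against 18.4 CPM in Slc14a1 cells and 41.7 CPM in Mgp cells), Cyp4b1 (257, 27.6 and 38.9 CPM), Igfbp5 (203, 6.13 and 30.6 CPM) and the laminin-related secreted protein netrin 4, Ntn4 (357, 79.7 and 128 CPM). They were also higher in endomucin (Emcn, 1096, 469 and 258 CPM) and the plasminogen activator Plat (942, 438 and 103 CPM). Sox17, a gene of the rule, had a like pooled level in all 3 subgroups, 996 CPM in Slc14a1 cells, 1094 CPM in Mgp cells and 1050 CPM in cells with neither. The cells with neither were not uniform. They include all 17 members of cluster 8, which held 0 Slc14a1 and 9 Mgp UMIs and had Sox17 at 44.6 CPM, against 1115 CPM in members of cluster 3. The part of cluster 8 in the genes highest in cells with neither was not tested. Slc14a1 cells were 10.9, 33.3 and 32.7% of members in day 10 mice 3, 4 and 5, against 25.0 and 39.4% in 48 h mice 1 and 2, and the groups overlapped.

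**Figure D2:**
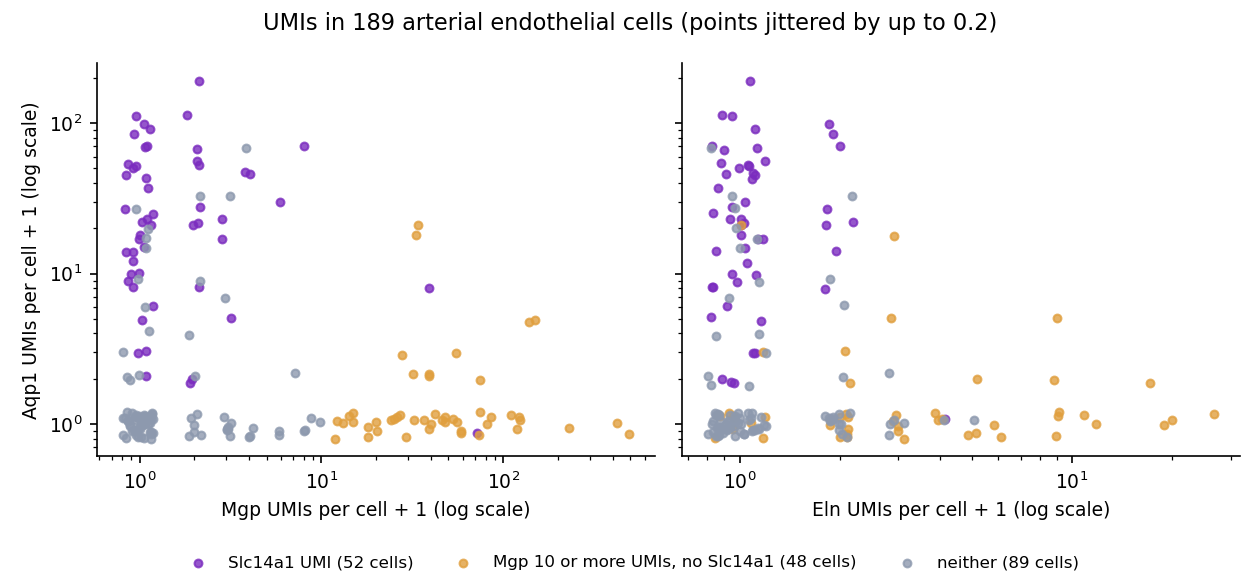
UMIs of Aqp1 (vertical axis) against UMIs of Mgp (left) and Eln (right) in each of the 189 members, with 1 added, log axes and a jitter of up to 0.2. Cells with an Slc14a1 UMI (52) lie high on the Aqp1 axis and mostly low in Mgp and Eln, and cells with 10 or more Mgp UMIs (48) mostly lie low in Aqp1.

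Between the times, few genes of the members changed. UMIs were summed over the members of each mouse and day 10 was compared with 48 h by edgeR's quasi-likelihood test, with p-values adjusted by Benjamini-Hochberg over all 4374 genes tested. In this test 7 genes (0.16%) passed an adjusted p of 0.05, 6 of them (0.137%) higher and 1 (0.0229%) lower at day 10. In 21.7% of the tested genes the CPM of the groups did not overlap (10.4% higher and 11.4% lower at day 10), and 238 genes (5.44%) had an unadjusted p under 0.05. The endothelial genes Sparcl1, Lrg1 and Ednrb rose, and Cyp26b1 fell. The other risers, Lyz2, Apoe and C1qa, are abundant in macrophages, and Apoe was also high in the other endothelial cells. Without mouse 5 no gene passed in edgeR (155 had an unadjusted p under 0.05), without mouse 1 it was 45, without mouse 2 it was 25 and without mouse 3 it was 3. Without the 17 members of cluster 8 it was 5, which included Sparcl1 (log2 fold change 1.82), Lrg1 (2.03), Lyz2, Apoe and, not called in all members, Ctla2a (1.62, adjusted p = 0.0072). Ednrb then had an adjusted p of 0.169 and C1qa of 0.0792, and Cyp26b1 was too low to be tested.

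Sparcl1, a secreted relative of the matrix protein SPARC, had 609, 623 and 809 CPM in day 10 mice 3, 4 and 5, against 175 and 185 CPM in 48 h mice 1 and 2. Each day 10 value was over 3 times as high as either 48 h value, and the 48 h mice lay close together. The log2 fold change was 1.92 (SE 0.27, adjusted p = 0.0045), and without mouse 5 it was 1.79 (adjusted p = 0.0712).

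Lrg1 showed the same order of groups. It had 558, 958 and 641 CPM in day 10 mice 3, 4 and 5, against 190 and 198 CPM in 48 h mice 1 and 2, with no overlap (log2 fold change 1.90, SE 0.31, adjusted p = 0.0143). Without mouse 5 the log2 fold change was 1.99 (adjusted p = 0.102). Its promoter window, shown because the gene rose, lies on the strand opposite to the numbering of the chromosome.
Lrg1, chr17:56121897-56122196, minus strand: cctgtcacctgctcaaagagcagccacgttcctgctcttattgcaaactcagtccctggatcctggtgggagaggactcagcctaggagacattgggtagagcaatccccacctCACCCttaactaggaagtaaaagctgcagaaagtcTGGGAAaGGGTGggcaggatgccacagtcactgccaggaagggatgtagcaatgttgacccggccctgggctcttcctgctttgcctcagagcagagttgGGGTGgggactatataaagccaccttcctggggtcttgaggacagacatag
It held 1 match to TGGGAA and 3 to CACCC.

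In peritubular cells neither gene passed the same test. Lrg1 had 255, 437 and 329 CPM there at day 10, against 250 and 189 CPM at 48 h (log2 fold change 0.52, SE 0.23, adjusted p = 0.299), and Sparcl1 had 236, 282 and 266 CPM at day 10, against 327 and 199.5 CPM at 48 h (log2 fold change -0.13, SE 0.20, adjusted p = 0.814). In glomerular cells Sparcl1 had 148, 168 and 212 CPM at day 10, against 57.9 and 0 CPM at 48 h, without overlap (log2 fold change 2.29, SE 0.54, adjusted p = 0.43). Lrg1 overlapped there, with 127, 454 and 170 CPM at day 10, against 282 and 159 CPM at 48 h (log2 fold change 0.08, SE 0.48, adjusted p = 0.984). The difference between members and glomerular cells in these effects was not tested.

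**Figure D3:**
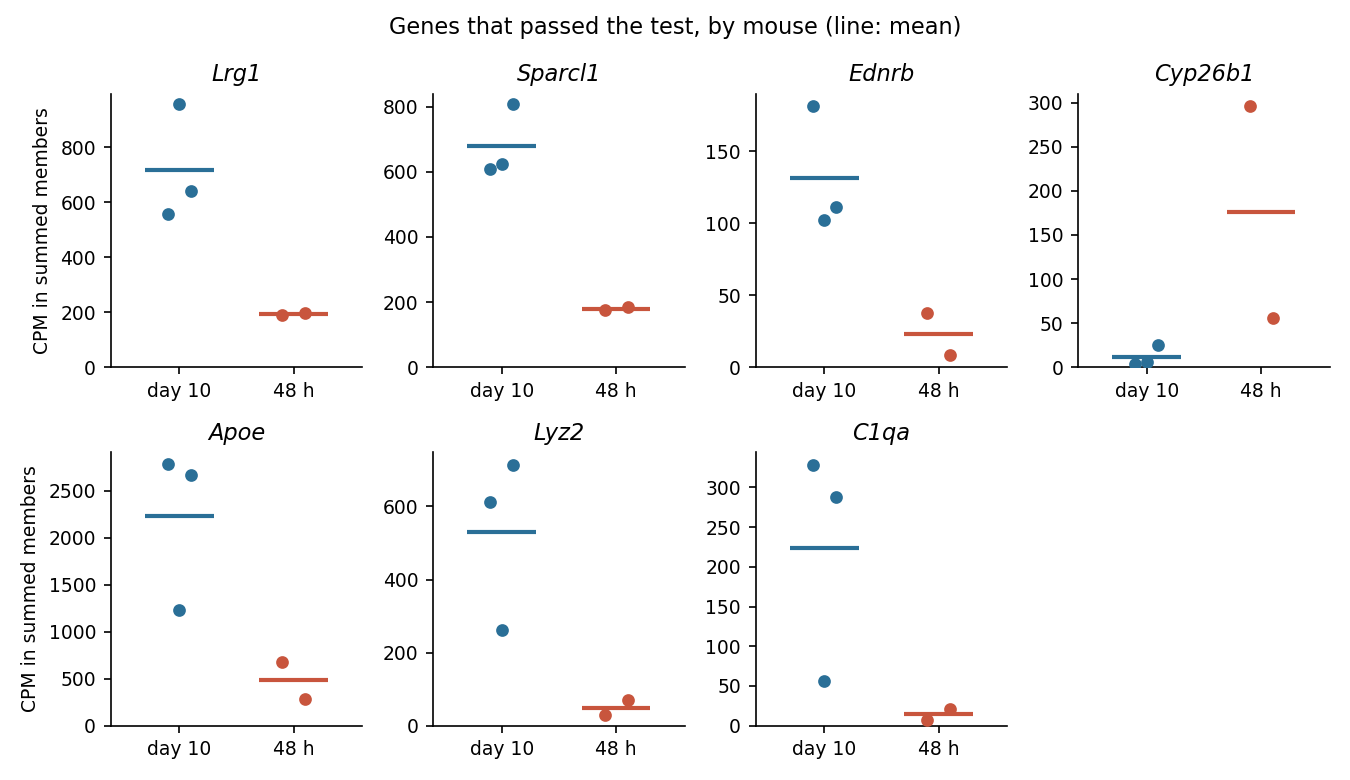
CPM in the summed members of each mouse (points) with the group mean (line) for the 7 genes that passed the edgeR test, day 10 left of 48 h. Sparcl1 lies at 609 to 809 CPM at day 10 and at 175 and 185 CPM at 48 h, and Cyp26b1 at up to 24.6 CPM at day 10 and at 56.0 and 296 CPM at 48 h.

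Pooled over the mice, most UMIs of Lrg1 and Sparcl1 came from the Slc14a1 cells, but in mouse 1 these cells gave 5 of 25 Lrg1 and 8 of 23 Sparcl1 UMIs. In these cells Lrg1 had 2364, 2405 and 962 CPM in day 10 mice 3, 4 and 5, against 189 and 379 CPM in 48 h mice 1 and 2. Sparcl1 had 1947, 1226 and 1285 CPM there at day 10, against 303 and 394 CPM at 48 h. Both genes were thus higher in every day 10 mouse within this subgroup, which held 5 to 16 cells per day 10 mouse and 7 and 13 cells in the 48 h mice. The 5 cells of mouse 3 included cells with 25266, 13690 and 11783 UMIs, of 57527 UMIs in all, so its values rest on few cells. In Mgp cells Sparcl1 had 249, 257 and 395.5 CPM at day 10, against 56.4 and 45.3 CPM at 48 h. The values at 48 h rest on 3 and 5 UMIs, and 2 of the 7 Mgp cells of mouse 2 held 79.0% of their UMIs. Lrg1 overlapped in Mgp cells, with 29.8, 70.1 and 226 CPM at day 10, against 226 and 0 CPM at 48 h. With every member that held Slc14a1 or Aqp1 left out, Sparcl1 had a log2 fold change of 1.23 (adjusted p = 0.670), Lrg1 was too low to be tested, and Lyz2 alone passed.

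**Figure D4:**
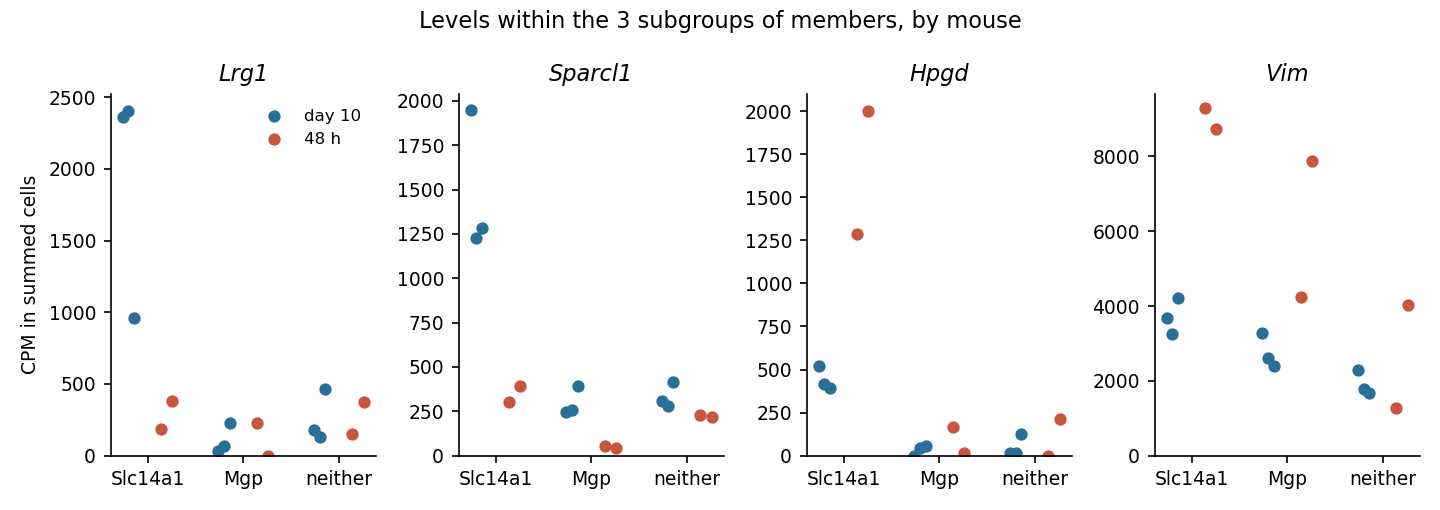
CPM of 4 genes in the summed cells of each subgroup of members, by mouse, day 10 left of 48 h within each subgroup. Lrg1 and Sparcl1 are high in the Slc14a1 cells of day 10 mice, and Hpgd and Vim are high in the Slc14a1 cells of 48 h mice.

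Ednrb, a receptor by which endothelial cells clear endothelin and release nitric oxide, rose within the members. It had 181, 102 and 110.9 CPM in day 10 mice 3, 4 and 5, against 37.9 and 8.62 CPM in 48 h mice 1 and 2. These values rest on 53, 18 and 27 UMIs at day 10, against 5 and 2 UMIs at 48 h, with 36 of the 189 members holding one. The groups did not overlap (log2 fold change 2.74, SE 0.51, adjusted p = 0.0425). Ednrb no longer passed without mouse 2, 3, 4 or 5 (adjusted p from 0.0913 to 0.227). In peritubular cells Ednrb had 581, 631 and 502 CPM at day 10, against 564 and 473 CPM at 48 h, with overlap (log2 fold change 0.04, SE 0.15, adjusted p = 0.943). In glomerular cells it had 278, 221 and 421 CPM at day 10, against 206 and 129 CPM at 48 h, without overlap (log2 fold change 0.81, SE 0.30, adjusted p = 0.683). When cells with Plvap or Ehd3 were admitted to the members, Ednrb had a log2 fold change of 0.14 (adjusted p = 0.811).

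Cyp26b1, which breaks down retinoic acid, was the gene that fell. It had 3.42, 5.67 and 24.6 CPM in day 10 mice 3, 4 and 5, against 296 and 56.0 CPM in 48 h mice 1 and 2. Mouse 1 was far above the rest, and 35.9% of its 39 UMIs came from 1 cell. Without the 1 member of mouse 1 that held 5 or more UMIs of immune cell markers, 25 of these UMIs remained. The log2 fold change was -3.74 (SE 0.71, adjusted p = 0.0452), and the gene no longer passed without mouse 1, 3, 4 or 5 (adjusted p from 0.154 to 0.854). In peritubular cells Cyp26b1 fell as well, to 26.1, 51.6 and 67.8 CPM at day 10, against 420.3 and 238 CPM at 48 h (log2 fold change -2.92, adjusted p = 0.0010, SE 0.31). In that class 1.44% of 9544 genes passed. The promoter windows of Ednrb and Cyp26b1 are given as those of the receptor that rose and the enzyme that fell.
Ednrb, chr14:103843652-103843951, minus strand: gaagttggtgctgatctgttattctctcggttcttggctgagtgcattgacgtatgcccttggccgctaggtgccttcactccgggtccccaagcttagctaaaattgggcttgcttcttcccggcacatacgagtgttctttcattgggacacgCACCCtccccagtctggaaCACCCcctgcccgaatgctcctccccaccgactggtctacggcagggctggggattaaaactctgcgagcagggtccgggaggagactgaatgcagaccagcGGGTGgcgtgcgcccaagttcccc
Cyp26b1, chr6:84593761-84594060, minus strand: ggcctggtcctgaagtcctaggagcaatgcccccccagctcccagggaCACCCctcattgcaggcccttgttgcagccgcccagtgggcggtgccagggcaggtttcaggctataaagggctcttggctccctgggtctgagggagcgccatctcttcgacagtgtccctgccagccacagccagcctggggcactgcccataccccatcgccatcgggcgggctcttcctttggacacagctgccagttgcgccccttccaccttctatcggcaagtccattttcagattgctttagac
Ednrb held 3 matches to CACCC and Cyp26b1 held 1, and neither held the other motifs.

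Apoe, a lipid carrier, Lyz2, a lysozyme, and C1qa, a complement subunit, are abundant in macrophages and were lower in members than in the rest of the kept cells. Lyz2 had 612, 261 and 715 CPM in day 10 mice 3, 4 and 5, against 30.3 and 69.0 CPM in 48 h mice 1 and 2 (log2 fold change 3.31, SE 0.44, adjusted p = 0.0045). Apoe had 2785, 1230 and 2666 CPM at day 10, against 675 and 289 CPM at 48 h (log2 fold change 2.26, SE 0.37, adjusted p = 0.0143), and C1qa had 328, 56.7 and 288 CPM, against 7.59 and 21.6 CPM (log2 fold change 3.78, SE 0.68, adjusted p = 0.0359). Single cells carried much of this. In mouse 3, 1 cell held 78.9% of the Apoe UMIs and 86.0% of the Lyz2 UMIs. In the other endothelial cells Apoe had 1307, 1701 and 2121 CPM at day 10, against 1484 and 1424 CPM at 48 h. At 48 h it was found in 88.2 and 85.7% of the peritubular cells of mice 1 and 2, against 29.8 and 35.3% of their proximal tubule cells.

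The 6 macrophage markers, all found in the members, summed to 1379, 425 and 1820 CPM at day 10, against 113.8 and 120.7 CPM at 48 h. In proximal tubule cells, which should lack it, Lyz2 was found in 61.1, 77.6 and 61.2% of cells at day 10, against 7.67 and 25.9% at 48 h. In the members it was found in 45.7, 75.8 and 44.9% at day 10, against 10.7 and 24.2% at 48 h. At day 10 the shares in members were below those in proximal tubule cells, but the classes differed in depth. Proximal tubule cells had median UMIs of 8313 and 12741 in day 10 mice 3 and 4, against 4561 and 4595 in members. In 48 h mouse 1, with 2888 against 3769 UMIs, members had the higher share. In mouse 2, with 5167 against 4622 UMIs, they had the lower share. Shares at unlike depth therefore do not place the members above or below the level of free RNA. C1qa was found in 23.4, 27.6 and 27.6% of proximal tubule cells at day 10, against 3.07 and 2.91% at 48 h, and in 23.9, 27.3 and 22.4% of members, against 3.57 and 6.06%. The part of free RNA in the summed levels was not tested. In the rest of the kept cells the summed markers lay between 8813 and 16448 CPM at day 10, against 2265 and 3966 CPM at 48 h. With the 12 members that held 5 or more immune marker UMIs left out, Apoe had a log2 fold change of 1.05 (adjusted p = 0.815) and Lyz2 2.49 (adjusted p = 0.148). Sparcl1 (1.94, adjusted p = 0.0053) and Lrg1 (2.40, adjusted p = 0.0053) passed in those cells, while Ednrb (2.80, adjusted p = 0.0629) and Cyp26b1 (-3.32, adjusted p = 0.148) did not. The part of macrophage RNA in the changes of other genes was not tested.

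Several genes that followed in order of p did not pass. Hpgd, the enzyme that inactivates prostaglandins, had 109, 170 and 234 CPM in day 10 mice 3, 4 and 5, against 326 and 629 CPM in 48 h mice 1 and 2, without overlap (log2 fold change -1.51, SE 0.33, adjusted p = 0.121). Most of it lay in the Slc14a1 cells, where it had 521, 414 and 395.5 CPM at day 10, against 1288 and 2002 CPM at 48 h. The intermediate filament vimentin (Vim) had 2902, 2533 and 2999 CPM in the members at day 10, against 4074 and 7186 CPM at 48 h (log2 fold change -0.99, SE 0.24, adjusted p = 0.189). It too was lower in the Slc14a1 cells of every day 10 mouse, at 3685, 3263 and 4216 CPM, against 9283 and 8722 CPM at 48 h.

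Tgfb2, a TGF-beta ligand, had 109, 45.3 and 53.4 CPM in the members at day 10, against 182 and 207 CPM at 48 h (log2 fold change -1.43, adjusted p = 0.153). Ptn had 359, 142 and 690.1 CPM at day 10, against 83.5 and 94.8 CPM at 48 h (log2 fold change 2.15, adjusted p = 0.138), and Igfbp7 had 2450, 2550 and 3282 CPM, against 1358 and 1513 CPM (log2 fold change 0.96, adjusted p = 0.174). Ptn, Igfbp7, Lrg1 and Sparcl1 were all higher in the Slc14a1 cells than in the other 2 subgroups when mice were pooled. Without members that held Slc14a1 or Aqp1, the log2 fold change of Igfbp7 was -0.46. The remaining genes that the rule took had log2 fold changes from 1.11 to 4.08 for Adamtsl1, Asap2, Ctla2a, Fcrls, Dapk3, Abcb1b and Ccnl2 (adjusted p from 0.138 to 0.627) and from -2.33 to -0.93 for Irf7, Cables2, Rsad2, Fabp4, Dbndd2, Ntan1, Sox18 and Sox7 (adjusted p from 0.198 to 0.627).

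Sox18 and Sox7, the relatives of Sox17 that act with it in vessel formation, did not pass but had groups that did not overlap. Sox18 had 233, 346 and 168 CPM at day 10, against 432 and 509 CPM at 48 h, and Sox7 had 17.1, 5.67 and 8.22 CPM, against 60.7 and 56.0 CPM. Of the 22 genes of the arterial identity and Notch list, 20 were tested, 0 passed in edgeR (3 had an unadjusted p under 0.05, all lower at day 10), and the median log2 fold change was -0.08, against 0.02 over all genes tested. Bmx had 137, 255 and 181 CPM at day 10, against 159 and 151 CPM at 48 h, and Jag1 had 236, 380 and 189 CPM, against 212 and 241 CPM, so that both overlapped. Dll4 (log2 fold change -0.07, SE 0.34), Efnb2 (-0.09, SE 0.29), Sema3g (-0.09, SE 0.25), Cxcl12 (-0.20, SE 0.36) and Hey1 (0.49, SE 0.51) had standard errors that leave changes of that size undetectable here.

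Of the flow and tone genes, Ednrb was the one that passed. Klf2, the flow-induced transcription factor, had 1752, 1479 and 969 CPM at day 10, against 1753 and 1263 CPM at 48 h (log2 fold change -0.08, SE 0.26). Klf4 (-0.17, SE 0.31) and Nos3, the endothelial nitric oxide synthase (0.45, SE 0.36), overlapped as well. Endothelin 1 (Edn1) had 226, 232 and 349 CPM at day 10, against 425 and 371 CPM at 48 h, with no overlap but no passing p (log2 fold change -0.54, SE 0.26, adjusted p = 0.945). Of 21 vessel tone genes 10 were tested, 1 rose (Ednrb) and 0 fell, against 0.16% of all genes tested, with a median log2 fold change of -0.28. Of 15 flow response genes 11 were tested and 0 passed in edgeR (1 had an unadjusted p under 0.05), with a median of -0.15. The fixed elastic genes Eln and Fbln5 had log2 fold changes of -0.28 (SE 0.38) and -0.05 (SE 0.24).

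Interferon and class I genes leaned one way without passing. Of 20 genes 16 were tested and 0 passed in edgeR, yet all 16 had a log2 fold change below 0 (median -0.54) and 5 had an unadjusted p under 0.05. Over all genes tested, 2107 of 4374 were below 0. Irf7, the regulator of interferon production, had 51.3, 5.67 and 49.3 CPM at day 10, against 98.6 and 159 CPM at 48 h (log2 fold change -1.78, SE 0.44, adjusted p = 0.198). Rsad2, an antiviral enzyme, had 133, 125 and 94.5 CPM at day 10, against 205 and 259 CPM at 48 h (log2 fold change -0.98, adjusted p = 0.427). In peritubular cells Irf7 fell (log2 fold change -1.67, SE 0.23, adjusted p = 0.0061). Neutrophil markers in the members, which moved in the same direction, summed to 10.3, 22.7 and 8.22 CPM at day 10, against 68.3 and 177 CPM at 48 h, and their part in these values was not tested.

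Class II genes were high in 1 mouse. The invariant chain Cd74 had 51.3, 56.7 and 961 CPM in day 10 mice 3, 4 and 5, against 22.8 and 34.5 CPM at 48 h (log2 fold change 3.57, SE 1.12, adjusted p = 0.627), so that mouse 5 stood alone. The fatty acid binding protein Fabp4 had 534, 680.0 and 472 CPM at day 10, against 1866 and 685 CPM at 48 h (log2 fold change -1.14, adjusted p = 0.428). In the list of VEGF, angiopoietin and tip cell genes 11 of 17 were tested, 0 passed in edgeR and 0 had an unadjusted p under 0.05. Of the activation genes, Vcam1 had 75.3, 51.0 and 333 CPM at day 10, against 45.5 and 103 CPM at 48 h (log2 fold change 0.96, SE 0.61), and Vwf, the von Willebrand factor, had 95.8, 221 and 312 CPM, against 137 and 134 CPM (0.63, SE 0.41). The stress genes Mt1 (-0.24, SE 0.53), Mt2 (-0.92, SE 0.68) and Cdkn1a (1.22, SE 0.62) also overlapped between the groups.

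The effect of time was then set against that in the other endothelial cells of the same mice, by fitting both cell classes together in edgeR, with a term for each mouse, and testing whether their time effects differed. The other cells include the 803 that had 2 or more marker UMIs but held Plvap or Ehd3. Slc14a1 had 43.6, 49.5 and 86.6 CPM in the other cells at day 10, against 9.73 and 24.8 CPM at 48 h. How far the division of cells by the rule shaped the differences was not tested. In 27 of 11347 genes (0.238%) the time effects differed, 14 of them with a more positive effect in members. Kap was among these genes (difference of effects 1.24, adjusted p = 0.0154). In the other endothelial cells Kap stood at 23.5 CPM in day 10 mouse 4, against 582 to 1002 CPM in the remaining mice. A limma fit of the log2 ratio of both classes per mouse gave 25 genes (0.22%), and a fit with as many other endothelial cells as members gave 8 of 5225 (0.153%). The interaction fit gives sums of few and of many cells the same spread, and both further fits were added after the data were seen. The fit with equal numbers rests on a single random draw of the other cells, so which genes pass in it may depend on that draw. Mgp, Cldn5, Vim and Ednrb passed in all 3, and also in the edgeR fit without the members of cluster 8, which gave 37 genes. In the fit with equal numbers their log2 differences were -5.32, -2.63, -2.07 and 3.21, against -1.79, -1.75, -1.57 and 2.92 in the interaction fit.

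Cldn5 had 1081, 1779 and 1795 CPM in members at day 10, against 1791 and 2858 CPM at 48 h. In the other endothelial cells it had 442, 365 and 485 CPM at day 10, against 137 and 233 CPM at 48 h. The values thus pointed in opposite directions, with overlap in the members and none in the others, and the log2 effect in members was 1.75 lower (-1.75, SE 0.21, adjusted p = 4.43e-14, and 0.000853 with the log2 ratio). In peritubular cells by themselves Cldn5 rose, with 384, 285 and 325 CPM at day 10, against 57.7 and 35.4 CPM at 48 h (log2 fold change 2.68, SE 0.22, adjusted p = 0.0001).

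Vim had the values given above in members, and 1203, 969 and 1113 CPM in the other endothelial cells at day 10, against 561 and 791 CPM at 48 h (difference of effects -1.57, SE 0.19, adjusted p = 4.58e-13, and 0.000237 with the log2 ratio). Mgp had 2108, 2380 and 3652 CPM in members at day 10, against 6389 and 3573 CPM at 48 h, and 747, 467 and 561 CPM in the others, against 408 and 198 CPM. At 48 h, 1 member held 494 of the 842 Mgp UMIs of mouse 1, and 1 member held 423 of 829 in mouse 2. The highest counts in a member at day 10 were 148, 80 and 230 UMIs in mice 3, 4 and 5. The part of these cells in the difference was not tested. The cell with 494 UMIs was the 1 member of mouse 1 that held 5 or more immune marker UMIs. With such members left out, 348 Mgp UMIs remained in mouse 1. Mgp then had 2273, 2004 and 4076 CPM at day 10, against 2897 and 3694 CPM at 48 h, with overlap. The Mgp groups overlapped in members and not in the others (-1.79, SE 0.20, adjusted p = 1.81e-16, and 0.00165 with the log2 ratio). Proximal tubule cells are used here to gauge free RNA. Mgp was found in 46.5% of them in day 10 mouse 3, against 10.9 and 7.19% in 48 h mice 1 and 2. Their median UMIs were 8313, 2888 and 5167 in the same order. In peritubular cells it was found in 44.0 and 48.2% in day 10 mice 3 and 4, against 13.5 and 4.76% at 48 h. In day 10 mouse 5 the peritubular share was lower than in mice 3 and 4. Pooled over all 5 mice, Mgp was found in 26.8% of peritubular cells and 27.7% of proximal tubule cells. The part of free RNA in the Mgp difference was not tested. For Ednrb the others had 428, 437 and 314 CPM at day 10, against 432 and 395 CPM at 48 h, so that members lay nearer to them at day 10 than at 48 h (2.92, SE 0.45, adjusted p = 2.43e-07, and 0.00849 with the log2 ratio).

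**Figure D5:**
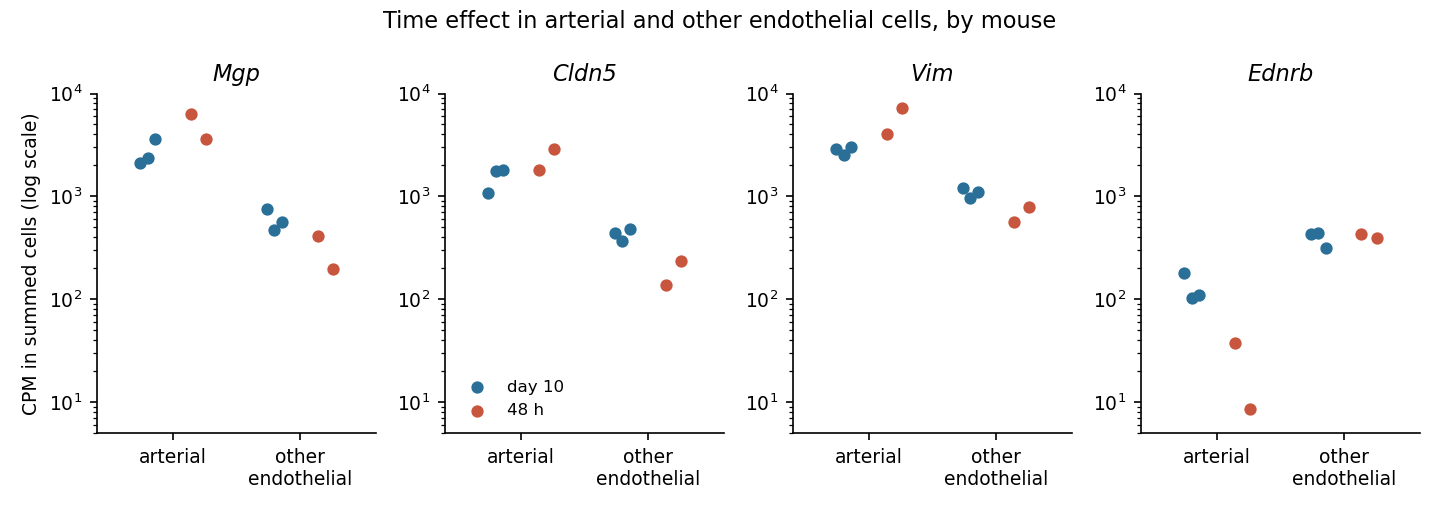
CPM of 4 genes in the summed arterial members and in the other endothelial cells of each mouse, on a log axis, day 10 left of 48 h within each class. Cldn5 and Vim are higher at day 10 in the other endothelial cells and not in the members, and Ednrb is higher at day 10 in the members, with overlap in the others.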

How the data were processed

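Per the labels, libraries were made with 10x Genomics 3′ v3.1 chemistry. Per the submitters' processing notes, the mm10 genome, Seurat 4.0.5 and Cell Ranger 6.0.2 were used, whereas the deposited matrix headers name Cell Ranger 6.0.0. The authors deposited raw UMI counts per gene and barcode and a table of kept cells with their cell type, cluster, counts and percent of mitochondrial UMIs. The percent column, the deposited embedding scores (UMAP coordinates) and barcodes outside the table were not used beyond the authors' filter. No doublet or free RNA removal is stated in the sources used here, and none was applied.

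The members were found in the raw counts by the rule in the text. The members, lists, named-gene rule and tests were chosen with earlier results of these data known. Counts were summed per mouse and tested with edgeR 4.0.16 under R 4.3.3: low genes were removed by filterByExpr, libraries were scaled by TMM, and the quasi-likelihood F test was adjusted by Benjamini-Hochberg over all genes tested (threshold 0.05). CPM use raw totals and fold changes use TMM factors. The SE was obtained by dividing the absolute log2 fold change by the square root of F. Named genes were up to 12 per direction with an average log2 CPM of 5 or more, CPM that did not overlap and, relative to the remaining kept cells, a level of 0.2 times or more, completed by the smallest p, plus a fixed set; of that set Fos and Icam1 were too low to be tested. Lyz2, Apoe and C1qa fell outside this rule and were named after their values were seen, as were the subgroups. Alternatives used DESeq2 1.42.0, limma 3.58.1 (log2 CPM, prior count 2), other scalings and filters, other member rules, equal numbers of cells and counts, and leaving out each mouse. Shares were tested by exact permutation in scipy 1.17.1. The fits were tested on simulated counts. The mice are the replicates. As only the mouse number sets samples of a time apart in the labels, p-values measure the spread between these libraries. In summed counts, fewer cells of a type and less RNA per cell cannot be told apart. Promoters came from RefSeq (GRCm38.p6); Sox17, Sparcl1 and Mgp have none printed.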

Additional observations from a re-analysis of the deposited data

Results flagged for a closer look

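In the genes below, the effect of time (day 10 over 48 h, log2) differed between arterial endothelial cells and the other endothelial cells of the same mice, both in the edgeR interaction test and in the limma test of the log2 ratio per mouse. The difference is the effect in arterial cells minus that in the others.

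The effect was more negative in arterial cells for Hpgd (-3.31), Rgs10 (-2.31), Odc1 (-2.25), Tgfb2 (-1.99), Fn1 (-1.95), Mgp (-1.79), Cldn5 (-1.75) and Vim (-1.57). It was more positive for Ednrb (2.92), Apoe (2.14), Lyz2 (1.69), Lrg1 (1.28) and Sparcl1 (1.16). With as many other endothelial cells as members, taken in a single random draw, Mgp, Cldn5, Vim and Ednrb passed and the remaining genes of these 13 did not. Hpgd, at 109 to 234 CPM in arterial cells at day 10, against 326 and 629 CPM at 48 h, stood at 33.0, 22.0 and 48.8 CPM in the other endothelial cells at day 10, against 10.8 and 7.39 CPM at 48 h. Apoe and Lyz2 are abundant in macrophages, and the macrophage markers moved with them in the members (values in the report). Apoe was also high in the other endothelial cells. The part of macrophage RNA in these differences was not tested.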

How the results depend on the processing

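No paired analysis was possible because the groups share no replicate number (mice 3, 4 and 5 against mice 1 and 2). The count of 7 changed genes was 4 with raw totals and no factors, 42 without a filter on low counts, 3 with equal cells and counts, 1 without members holding Slc14a1 or Aqp1, 4 with a rule of 3 or more UMIs, 2 with Plvap and Ehd3 ignored and 3 without members holding 5 or more immune marker UMIs. Leaving out each mouse gave 0 to 45. It was 7 with DESeq2 size factors, 5 with the DESeq2 Wald test and 6 with limma trend. Sparcl1 passed in 13 of the 16 alternatives, Lrg1 in 12 of the 15 that tested it, Ednrb in 4 of 16 and Cyp26b1 in 4 of 14. The rule that would leave out members with 2 or more immune or 5 or more tubule marker UMIs kept 2 to 7 cells per mouse and gave no value. The count of 27 genes with differing time effects was 17 against Plvap-positive cells and 8 against equal numbers of other cells, and 20 to 39 without a mouse. The difference in share was between 1.65 and 3.44 percentage points without a mouse.

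Some log2 fold changes turned sign, all of genes that had not passed in the report's test, and the cause was not tested. Cxcl12 was 0.068 with limma trend. With equal cells and counts Klf2 was 0.036, Eln 0.13, Fbln5 0.013, Efnb2 0.063, Cxcl12 0.17 and Slc14a1 -0.048. Without members holding Slc14a1 or Aqp1, Igfbp7 was -0.46, Rsad2 0.43, Fbln5 0.049, Efnb2 0.11 and Sema3g 0.049. With 3 or more UMIs Dll4 was 0.024. With Plvap and Ehd3 ignored, Cldn5 was 0.15, Klf2 0.014, Klf4 0.25, Vcam1 -0.14, Eln 0.28, Fbln5 0.052, Dll4 0.30 and Sema3g 0.16. Eln was 0.091 without members with 5 or more immune UMIs, and Dll4 0.097 without members of cluster 8. Without each mouse in turn, log2 fold changes ran for Nos3 from -0.058 to 1.65, Klf2 from -0.29 to 0.14, Dll4 from -0.58 to 0.46, Efnb2 from -0.21 to 0.10, Mt1 from -1.42 to 0.18, Klf4 from -0.54 to 0.38, Fbln5 from -0.25 to 0.20, Cxcl12 from -0.72 to 0.96, Eln from -0.62 to 0.12, Jag1 from -0.12 to 0.44 and Vcam1 from -0.29 to 1.79. With 28 to 49 members per mouse and 131799 to 292256 UMIs, genes of low level had too few counts to be tested.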
